A study of Mus musculus with 6 samples.

Results

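Neurotrophin and GDNF signalling is represented here by 8 genes, taken by symbol from the 25978 genes of the deposited table because they bear on nerve invasion in pancreatic cancer. They are the ligand genes Bdnf, Gdnf and Artn and the receptor genes Ngfr, Ntrk2, Ntrk3, Gfra1 and Ret, and the rule that lists them uses no expression value. Each was read in 6 RNA-seq libraries of YFP-positive cells sorted from primary pancreatic tumours, 3 of cells with the epithelial surface protein EpCAM (EpCAM+) and 3 of cells without it (EpCAM-). All libraries came from KPCY mice of C57BL/6 background between 5 and 7 weeks of age, in which Pdx1-Cre removes floxed Trp53 (Trp53 fl/fl) and switches on a Rosa26 YFP reporter behind a stop cassette. Pdx1-Cre acts in pancreatic cells and their descendants, so a sorted YFP-positive cell need not be a tumour cell. The labels separate the groups by the EpCAM gate and do not say whether they share animals. The comparison asks how YFP-positive cells of these tumours differ with and without EpCAM.

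Neurotrophins and the GDNF family are secreted proteins that keep neurons alive and guide their outgrowth. BDNF acts through the receptor tyrosine kinase TrkB (Ntrk2), TrkC (Ntrk3) is the receptor of the neurotrophin encoded by Ntf3, and every neurotrophin also binds the low-affinity receptor p75 (Ngfr). GDNF and artemin bind membrane-anchored co-receptors of the Gfra family, and the complex activates the receptor tyrosine kinase RET. In pancreatic cancer this system is known for its part in the growth of tumour cells along nerves, where GDNF and artemin act as attractants.

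RefSeq promoter windows (GRCm38.p6, 250 bases before to 50 after an annotated start) matched 6 of the 8 genes, with 13 windows in all. They were searched on both strands for the E-box CAGGTG, the letters read by Snail and Zeb factors, which is written CACCTG on the other strand. The motif lay in 1 of the 13 windows, the fifth of 7 Bdnf windows, and in 20.2% of all 32851 windows of the same length. That window and both windows of Gdnf, the ligand gene with the largest group difference, are shown on the plus strand, with the motif in capitals.
Bdnf, chr2:109694159-109694458: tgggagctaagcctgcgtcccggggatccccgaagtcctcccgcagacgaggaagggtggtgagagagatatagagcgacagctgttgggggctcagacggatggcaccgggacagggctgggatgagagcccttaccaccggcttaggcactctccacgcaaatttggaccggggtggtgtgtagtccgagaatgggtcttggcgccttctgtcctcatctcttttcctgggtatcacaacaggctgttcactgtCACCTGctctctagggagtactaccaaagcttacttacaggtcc
Gdnf, chr15:7809798-7810097: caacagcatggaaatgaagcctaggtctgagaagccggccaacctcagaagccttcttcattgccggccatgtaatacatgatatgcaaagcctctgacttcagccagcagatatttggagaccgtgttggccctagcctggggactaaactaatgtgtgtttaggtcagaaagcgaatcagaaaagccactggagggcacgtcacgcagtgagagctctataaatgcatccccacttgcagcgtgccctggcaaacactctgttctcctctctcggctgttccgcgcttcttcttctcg
Gdnf, chr15:7813477-7813776: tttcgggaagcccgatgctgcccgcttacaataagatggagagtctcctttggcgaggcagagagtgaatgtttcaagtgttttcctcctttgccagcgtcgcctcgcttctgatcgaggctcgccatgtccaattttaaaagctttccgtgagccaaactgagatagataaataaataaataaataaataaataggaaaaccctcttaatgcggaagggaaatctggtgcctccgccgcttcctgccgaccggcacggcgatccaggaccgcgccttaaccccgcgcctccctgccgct
In the Bdnf window the motif begins at base 257 of 300, and neither Gdnf window holds it. The Gdnf windows hold 11 and 22 CG dinucleotides, against a median of 7 over all windows.

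Of the 8 genes, 6 were higher in EpCAM- libraries (Bdnf, Gdnf, Artn, Ngfr, Ntrk3 and Gfra1), 1 was lower (Ret) and 1 did not pass the test (Ntrk2). Every difference is the EpCAM- mean less the EpCAM+ mean of the deposited log2 values. Limma with Benjamini-Hochberg adjustment was run over the 15783 genes that passed a filter on low levels. At an adjusted p under 0.05 it called 43.4% of those genes, 20.3% as higher and 23.1% as lower in EpCAM-. Ngfr and Ntrk3 were under the filter's minimum of 10 in EpCAM+ (means of 6.26 and 7.05) and passed through EpCAM- alone. A lower level in EpCAM- was therefore not open to these genes, and the counts given here include them. The largest differences were those of Ntrk3, 24.9-fold, Gdnf, 16.0-fold, and Bdnf, 3.79-fold. No overlap between the groups was seen for 7 of the 8 genes and for 56.3% of all tested genes. Without EpCAM+ replicate 1, 4 genes in place of 7 were called, those with the larger differences (Gdnf, Ntrk3, Bdnf and Ngfr). Over all tested genes that fit called 5436, in place of 6850 with all libraries. In such sorted bulk samples a smaller number of expressing cells and less RNA per cell cannot be told apart.

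**Figure D1:**
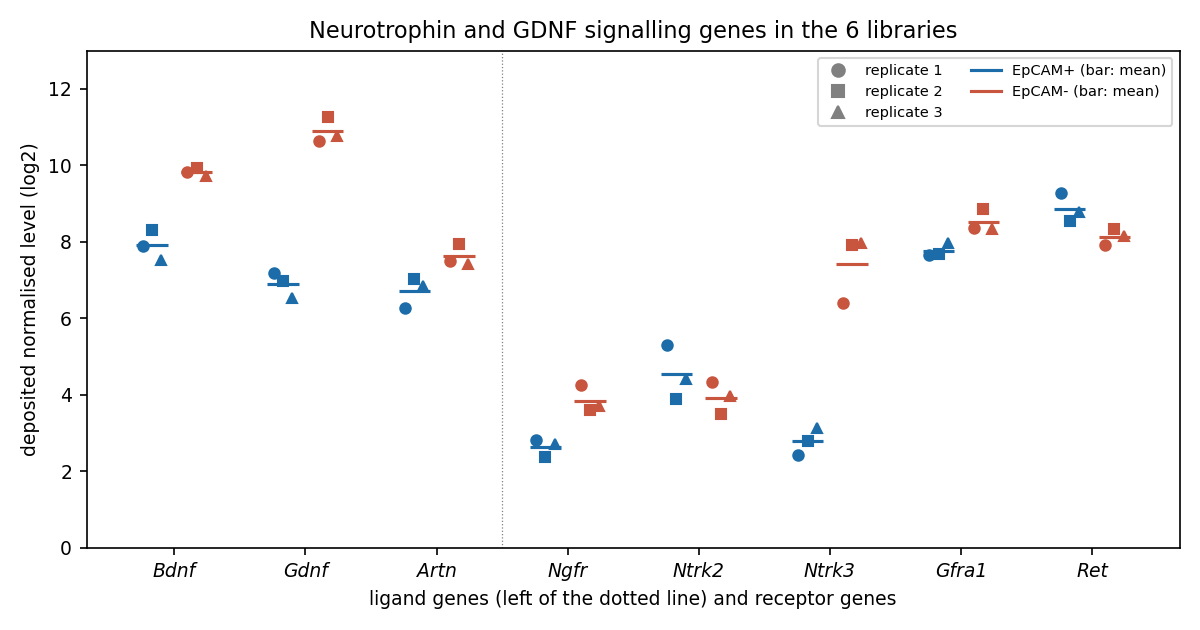
Deposited normalised log2 level of the 8 genes (vertical axis) in the 3 EpCAM+ (blue) and 3 EpCAM- (red) libraries, with 1 symbol per replicate number and a bar at each group mean. Gdnf lies between 6.53 and 7.19 in EpCAM+ and between 10.65 and 11.27 in EpCAM-, and Ntrk2 is the gene whose groups overlap.

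The largest sum of back-transformed values among the 6 libraries was 1.07 times the smallest. The values are normalised, so these sums do not show library size, and sequencing depth is unknown. Epcam stood between 14.89 and 15.06 in EpCAM+ and between 7.22 and 8.42 in EpCAM- libraries, as the labels of the sort require. Trp53 stood between 6.93 and 7.36 in EpCAM+ and between 7.29 and 7.46 in EpCAM- libraries, and a level per gene does not show which exons the RNA holds. Of 7 epithelial markers, 7 were lower in EpCAM- libraries, against 23.1% of all tested genes. Replicates are described as biological in the series text, which does not tie them to separate animals, and the p-values cover no more than the spread among these 6 samples.

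Gdnf, the founding ligand of its family (ENSMUSG00000022144, GRCm38 chromosome 15, 7810846 to 7837575, plus strand), was low in EpCAM+ and high in EpCAM- libraries. In replicate order its log2 level read 7.19, 6.97 and 6.53 in the EpCAM+ group and 10.65, 11.27 and 10.77 in the EpCAM- group. Every EpCAM- library stood more than 3 log2 units above every EpCAM+ library. The log2 fold change was 4.0 ± 0.231 (SE), with a limma adjusted p of 2.39e-05. It lay between 3.81 and 4.21 over all 16 alternatives of the processing and passed in each.

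Bdnf, a neurotrophin gene (ENSMUSG00000048482, chromosome 2, 109674700 to 109727007, plus strand), was higher in EpCAM- libraries with little spread among them. The EpCAM+ libraries 1, 2 and 3 read 7.89, 8.31 and 7.54 on the log2 scale, and the EpCAM- libraries 9.84, 9.93 and 9.73. The SD was 0.385 in EpCAM+ and 0.0997 in EpCAM- (n = 3 per group). The log2 fold change was 1.92 ± 0.203 (SE, limma adjusted p = 0.00035). An antisense gene, Gm45346, overlaps the Bdnf locus, and its values lay between -0.84 and -0.68 in all libraries, close to the lowest deposited value of -1.52.

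Artn encodes artemin (ENSMUSG00000028539, chromosome 4, 117926162 to 117929763, minus strand) and was higher in EpCAM- libraries by less. On the log2 scale, libraries 1, 2 and 3 read 6.26, 7.03 and 6.84 with EpCAM and 7.49, 7.94 and 7.43 without it. The groups did not overlap, but the gap between the highest EpCAM+ and the lowest EpCAM- library was small beside that of Gdnf. The log2 fold change was 0.91 ± 0.258 (SE, limma adjusted p = 0.0259). The call was lost without EpCAM+ replicate 1 (adjusted p = 0.0695), EpCAM+ replicate 3 (0.0611) or EpCAM- replicate 2 (0.0747).

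Other ligand genes of these families were read as well, and the list is not complete. Of the 4 reported here, 3 were tested, of which 2 were lower in EpCAM- libraries and 1 did not pass. Over all tested genes 20.3% were called as higher and 23.1% as lower. Ntf5, the other ligand gene of TrkB beside Bdnf, fell by 2.16 ± 0.227 (SE, limma adjusted p = 0.000341). Nrtn, the gene of neurturin, fell by 1.37 ± 0.190 (SE, adjusted p = 0.00124). Bdnf and Ntf5, whose products share a receptor, therefore stood on opposite sides of the comparison, as did Gdnf and Nrtn of the GDNF family. Gdf15, a distant relative that signals through RET by another co-receptor, had -1.11 with an adjusted p of 0.0505, and passed without EpCAM+ replicate 1 (-1.5, adjusted p = 0.0107). Pspn did not pass the filter on low levels, and Ntf3 was not analysed here.

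Ntrk3 showed the largest difference of the 8 genes. TrkC, its product, is a receptor tyrosine kinase (ENSMUSG00000059146, chromosome 7, 78175959 to 78738012, minus strand). In replicate order its log2 level read 2.43, 2.79 and 3.14 in the EpCAM+ group and 6.41, 7.91 and 7.97 in the EpCAM- group. EpCAM- replicate 1 was the lowest of its group and still far above each EpCAM+ library. The log2 fold change was 4.64 ± 0.450 (SE, limma adjusted p = 0.000243), and it lay between 3.89 and 5.15 over the alternatives, passing in all 16. Its mean back-transformed level was 7.05 in EpCAM+ and 192 in EpCAM-, so it passed the filter (a mean of at least 10 over the 6 libraries) through the EpCAM- group alone.

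Ngfr, the gene of p75 (ENSMUSG00000000120, chromosome 11, 95568818 to 95587735, minus strand), was near the filter in level. The EpCAM+ libraries 1, 2 and 3 read 2.81, 2.37 and 2.72 on the log2 scale, and the EpCAM- libraries 4.25, 3.60 and 3.71. Each EpCAM- library was above each EpCAM+ library, and the log2 fold change was 1.22 ± 0.254 (SE, limma adjusted p = 0.00783). With a mean back-transformed level of 10.5, of which 6.26 in EpCAM+ and 14.7 in EpCAM-, it also passed the filter through EpCAM- alone. It was left out by a filter at 50, and it had 0.80 with a pseudocount of 5.

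Ntrk2, the gene of the BDNF receptor TrkB (ENSMUSG00000055254, chromosome 13, 58806569 to 59133970, plus strand), did not pass. On the log2 scale, libraries 1, 2 and 3 read 5.31, 3.89 and 4.42 with EpCAM and 4.33, 3.49 and 3.96 without it. The groups overlapped, and EpCAM+ replicate 1 alone stood above 5. The log2 fold change was -0.61 ± 0.404 (SE, limma adjusted p = 0.262), it was -0.23 without EpCAM+ replicate 1, and it passed in 0 of 15 alternatives. The ligand gene Bdnf was thus higher in EpCAM- libraries where the gene of its kinase receptor showed no difference that passed. Ntrk2 and Ntrk3 also give rise to receptor forms that lack the kinase, and values per gene do not separate them from the full-length forms.

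Gfra1 and Ret encode the co-receptor and the kinase that GDNF engages, and their differences had opposite signs. Gfra1 (ENSMUSG00000025089, chromosome 19, 58235604 to 58455909, minus strand) had log2 levels of 7.65, 7.69 and 7.98 (EpCAM+) and 8.36, 8.86 and 8.33 (EpCAM-) in replicate order. Ret (ENSMUSG00000030110, chromosome 6, 118151745 to 118197718, minus strand) had 9.29, 8.54 and 8.77 (EpCAM+) and 7.93, 8.33 and 8.15 (EpCAM-) in replicate order. For Gfra1 each EpCAM- library was the higher, and for Ret each was the lower, though EpCAM+ replicate 2 and EpCAM- replicate 2 lay close together. The log2 fold changes were 0.75 ± 0.193 (SE, limma adjusted p = 0.0188) for Gfra1 and -0.73 ± 0.220 (SE, limma adjusted p = 0.0334) for Ret.

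Both calls were lost in some fits with 1 library left out. Over all such fits the log2 fold change lay between 0.58 and 0.85 for Gfra1 and between -0.89 and -0.52 for Ret. Gfra1 lost its call without EpCAM+ replicate 1 (limma adjusted p = 0.0645) or EpCAM+ replicate 2 (0.0615). Ret lost its call without EpCAM+ replicate 1 (limma adjusted p = 0.0868), EpCAM+ replicate 3 (0.0770), EpCAM- replicate 1 (0.0784) or EpCAM- replicate 3 (0.0755), and after quantile normalisation (0.0711), and it passed in 8 of 16 alternatives. Ret was thus present in every library of both groups, with a difference near the limit of the test. An antisense gene, Gm16277, overlaps Gfra1, and its log2 values were at most 2.00.

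Every tested receptor and co-receptor gene beyond the 8 was called, in each case also with any 1 library left out. Of 14 reported here, 9 were tested, of which 7 were higher, 2 were lower and 0 did not pass. Over all tested genes 43.4% were called, 20.3% as higher and 23.1% as lower. The median log2 fold change of the 9 was 1.09, where the median of all tested genes was 0.0043. Gfra2, the co-receptor gene for neurturin, stood at 6.91, 5.75 and 7.10 (EpCAM+) and 11.32, 11.50 and 11.26 (EpCAM-) in replicate order. Its log2 fold change of 4.77 ± 0.338 (SE, limma adjusted p = 5.65e-05) was well above that of Gfra1, although the difference between the genes was not tested. Gfra4, the persephin co-receptor gene, rose by 2.51 ± 0.352 (SE, adjusted p = 0.00133). Gas1, which encodes a protein related to the Gfra family, rose by 2.24 ± 0.198 (SE, adjusted p = 0.000155), and Ncam1, whose product can bind GDNF without RET, rose by 1.91 (adjusted p = 0.000572).

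The sortilin family split. Sort1, the gene of sortilin, which joins p75 in binding unprocessed neurotrophins, fell by 1.99 ± 0.184 (SE, limma adjusted p = 0.000193), and its relative Sorl1 fell by 4.49 ± 0.248 (SE, adjusted p = 1.98e-05). Sorcs2, another family member that pairs with p75, rose by 1.09 (adjusted p = 0.00724). Sorcs1, Sorcs3, Rtn4r, Gfra3 (the artemin co-receptor gene) and Gfral did not pass the filter. Gfra3 lay between -0.34 and -0.15 in all libraries, so Artn was measured beside a near-absent level of its preferred co-receptor gene.

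**Figure D2:**
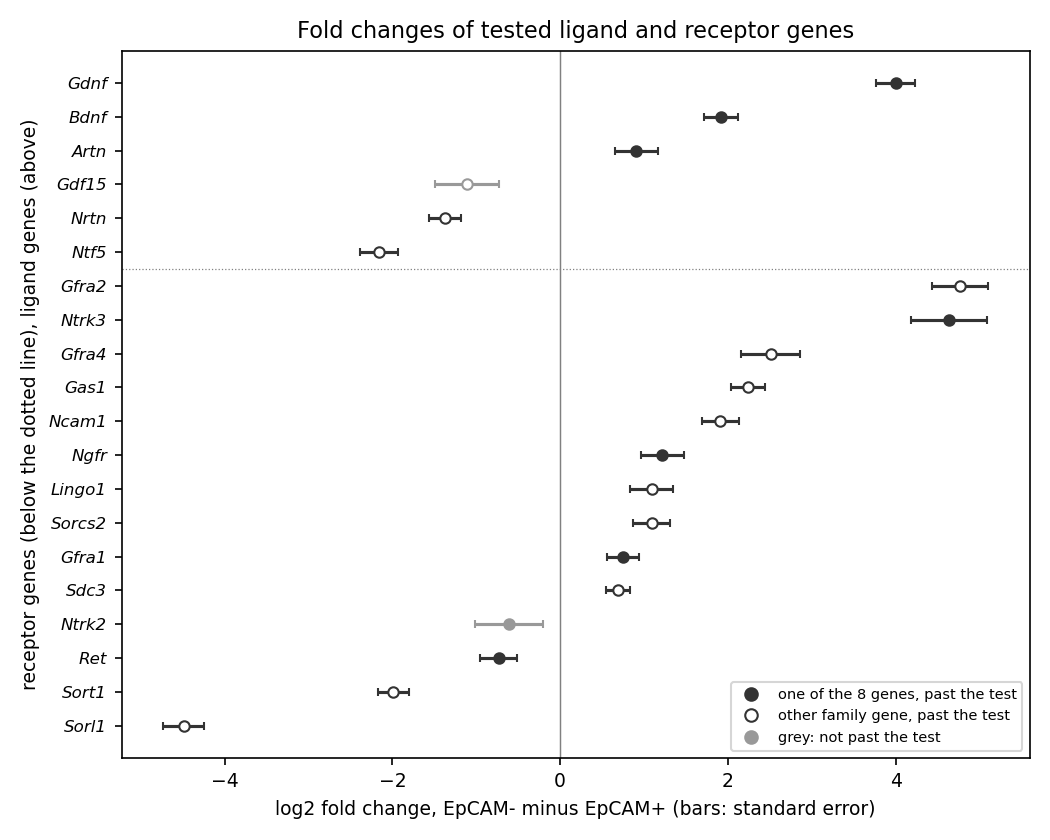
Log2 fold change of each tested ligand gene (above the dotted line) and receptor or co-receptor gene (below it), EpCAM- minus EpCAM+, with bars of 1 standard error. Filled points are the 8 genes, open points are other genes of the families, and grey points did not pass. Gfra2 (4.77) and Ntrk3 (4.64) stand at the high end and Sorl1 (-4.49) at the low end.

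Proteases that cut neurotrophin precursors were called at about the share of all tested genes, 43.4%. Of 8 tested, 1 was higher, 3 were lower and 4 did not pass, with a median of -0.45, and between 3 and 6 passed with each library left out in turn. Mmp7, a metalloprotease gene of epithelial cells, fell by 6.74 ± 0.359 (SE, limma adjusted p = 1.74e-05). The proprotein convertase genes Pcsk6 (-2.68, adjusted p = 0.000266) and Furin (-0.78, adjusted p = 0.00403) fell, and Mmp3 rose by 2.58 (adjusted p = 0.0293). The Mmp3 call was lost without EpCAM+ replicate 2 (2.11, adjusted p = 0.0904), EpCAM+ replicate 3 (0.0653) or EpCAM- replicate 2 (0.0654).

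Adaptors and effectors of the receptors were more often higher than lower in EpCAM- libraries. Of 25 listed, 23 were tested, of which 12 were higher, 6 were lower and 5 did not pass, with a median of 0.38. Over all tested genes 43.4% were called, 20.3% as higher and 23.1% as lower. The number of adaptors that passed was 10 without EpCAM+ replicate 1 or without EpCAM+ replicate 3. Grb7, an adaptor gene that binds RET and ERBB receptors, fell by 6.11 ± 0.223 (SE, limma adjusted p = 5.74e-06), and its relative Grb10 rose by 2.57 ± 0.458 (SE, adjusted p = 0.00397). Shc2, an adaptor gene of Trk receptors, fell by 1.67 (adjusted p = 0.00618), and Dok6, an adaptor gene of RET, rose by 1.21 (adjusted p = 0.00508). These adaptors serve other receptors as well, and the list is not specific to neurotrophins.

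Genes known to respond to neurotrophins or GDNF went both ways. Of 15 reported here and tested, 5 were higher, 3 were lower and 7 did not pass, with a median of 0.22. In all, 8 were called, a share near the 43.4% of all tested genes. Without EpCAM+ replicate 2 the number that passed was 4, and without EpCAM+ replicate 3 it was 2. Npy (-2.22, limma adjusted p = 0.00466), Arc (-1.93, adjusted p = 0.00185) and the feedback inhibitor gene Spry1 (-1.26, adjusted p = 0.0346) fell. Its relatives Spry2 (0.73, limma adjusted p = 0.0265) and Spry4 (0.59, adjusted p = 0.0211) rose, though both calls were lost without EpCAM+ replicate 2, EpCAM+ replicate 3 or EpCAM- replicate 2 (adjusted p between 0.0518 and 0.0771), and that of Spry2 also without EpCAM- replicate 1 (0.0634). Without EpCAM- replicate 3 the Spry1 value was -0.83 (limma adjusted p = 0.0459). Etv4 (0.38, adjusted p = 0.0120) and Etv5 (0.50, adjusted p = 0.0177), transcription factor genes downstream of RET in the developing kidney, rose, as did the immediate early gene Egr3 (0.79, adjusted p = 0.0208). Without EpCAM+ replicate 3 none of Etv4 (limma adjusted p = 0.0530), Etv5 (0.0705), Egr3 (0.0784) and Spry1 (0.0980) passed. Neither Etv5 (0.0569) nor Spry1 (0.108) passed without EpCAM+ replicate 2, and neither Etv4 (0.0511) nor Egr3 (0.0576) without EpCAM+ replicate 1. Of 9 other neurotrophic factor genes, 3 were higher, 0 were lower and 6 did not pass, with a median of 0.54. Over all tested genes 20.3% were called as higher and 23.1% as lower. Fgf2 rose by 2.92 ± 0.392 (SE, adjusted p = 0.00108), Ptn by 2.52 (adjusted p = 0.0462; 1.49 without EpCAM- replicate 2, the highest library at 10.94) and Cntf by 0.75 (adjusted p = 0.0385). Of these factors, only Fgf2 passed without EpCAM+ replicate 1, 2 or 3. Ptn also missed without EpCAM- replicate 1 (limma adjusted p = 0.0628), and Cntf without EpCAM- replicate 2 (0.109) or EpCAM- replicate 3 (0.104).

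Levels of different genes were compared only per length, as the back-transformed level per kilobase of the union of annotated exons. In EpCAM+ libraries Ret had the highest value, 70.6 ± 19.5 (SD, n = 3), followed by Artn (44.6), Gfra1 (40.1), Bdnf (39.6) and Gdnf (33.0), whose neighbours in that order overlapped in range. Ngfr (1.82), Ntrk2 (1.31) and Ntrk3 (0.234) formed a low end. In EpCAM- libraries Gdnf came first, at 528 ± 127 (SD, n = 3), and Bdnf next, at 147 ± 10.1 (SD, n = 3), with no overlap between them. Artn (83.0) and Gfra1 (67.9) overlapped, Ret stood at 41.9, and Ntrk3 (6.36) and Ngfr (4.27) overlapped above Ntrk2 (0.813). Dividing by the median coding transcript, chosen after seeing the data, kept Gdnf first in EpCAM- and in place 5 in EpCAM+. It set Gfra1 (158) above Ret (96.0) in EpCAM+ and Ntrk3 (70.4) above Ret (56.9), with overlap, in EpCAM-, so the order of the genes between is not settled by these lengths.

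The size of a group difference on the deposited scale depended on the level of a gene. Over all genes with a mean log2 level between 2 and 4, the bin that holds Ngfr, the median size of the difference was 0.359 and the 95th percentile 1.86. Between 4 and 6, which holds Ntrk2 and Ntrk3, these were 0.655 and 3.98, and between 8 and 10, which holds Gdnf, Bdnf, Gfra1 and Ret, they were 0.419 and 3.11. Ntrk3 and Gdnf were above the 95th percentile of their bins, and Ntrk2 was just under the median of its bin. Whether the authors' transform shrinks differences of genes at low levels was not tested.

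**Figure D3:**
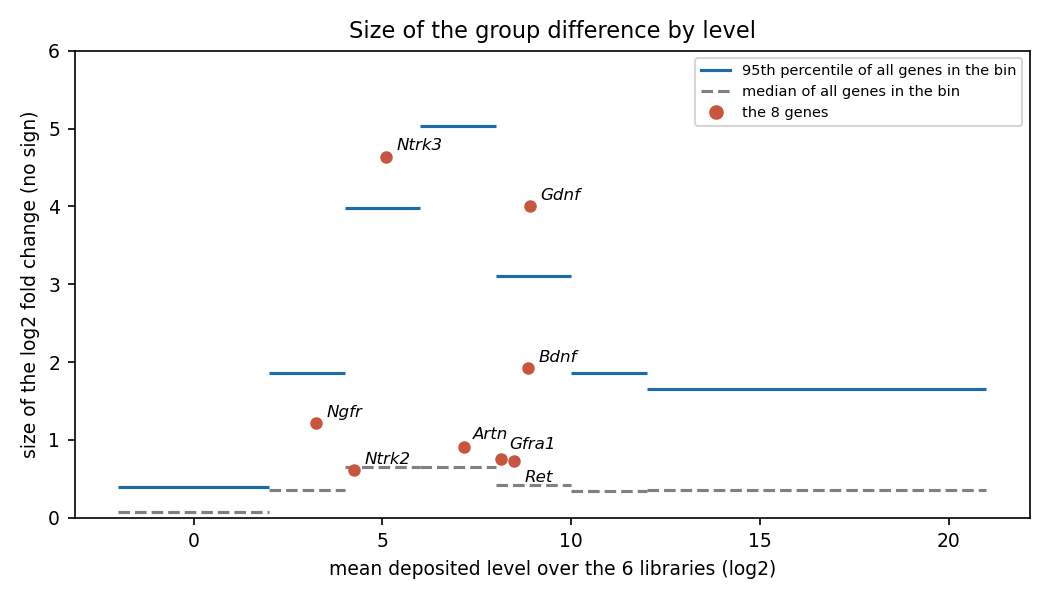
Size of the log2 difference between groups without its sign (vertical axis) against the mean log2 level over the 6 libraries, for the 8 genes (red points), with the median (dashed grey) and 95th percentile (blue) of all genes in each bin of level. Ntrk3 (4.64) and Gdnf (4.0) lie above the blue line of their bin.

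Markers of other cells that use or make these factors were read beside the 8 genes. Their counts stand beside 20.3% of all tested genes called as higher and 23.1% called as lower in EpCAM-. For Schwann cells, the glia of peripheral nerves, 1 of 5 tested markers was higher and 3 were lower in EpCAM- libraries, and the summed back-transformed level of the list was between 9465.6 and 10267.3 in EpCAM+ and between 1361.5 and 1634.1 in EpCAM-. Of its defining genes, Sox10 lay between -0.03 and 0.29 and Gfap between 0.67 and 0.91 on the log2 scale, near the low end of the table in every library. The high sum in EpCAM+ came with Erbb3 (12.69 to 12.75), which epithelial cells also express, and Mbp (11.21 to 11.55). S100b was lower in EpCAM- libraries as well (-2.17), and Pmp22 was higher (2.49). The cells that this RNA came from were not tested. For neurons, 5 of 7 tested markers were higher and 1 was lower, with sums between 704 and 1184.8 in EpCAM+ and between 4085.9 and 7478.8 in EpCAM-. Prph, counted as higher, passed the filter through EpCAM- alone, so a lower level in EpCAM- was not open to it. The neurofilament genes Nefm (5.22) and Nefl (4.58) and the tubulin gene Tubb3 (3.34) rose, while Elavl3, Elavl4, Rbfox3, Th and Chat stayed under a back-transformed level of 10 in all libraries.

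Like 6 of the 8 genes, most fibroblast markers were higher in EpCAM- libraries. Of 10 tested, 8 were higher and 0 were lower, and their summed back-transformed level was 14149.2, 1369.3 and 1664.9 (EpCAM+) and 125710.6, 169605.7 and 37950.8 (EpCAM-) in replicate order. Dpt, counted as higher, passed the filter through EpCAM- alone, so a lower level in EpCAM- was not open to it. Gdnf was highest in the library with the highest fibroblast sum of each group, EpCAM+ replicate 1 (7.19) and EpCAM- replicate 2 (11.27). Ntrk3 was highest in replicate 3 of each group (3.14 and 7.97), and EpCAM- replicate 3 had the lowest fibroblast sum of its group. Ngfr was highest in replicate 1 of each group (2.81 and 4.25). Bdnf (9.93), Artn (7.94) and Gfra1 (8.86) were highest in replicate 2 within EpCAM-. Within EpCAM+, Bdnf (8.31) and Artn (7.03) were highest in replicate 2, which had the lowest fibroblast sum, and Gfra1 (7.98) in replicate 3. Leaving out EpCAM+ replicate 1 and EpCAM- replicate 3, whose fibroblast sums stood apart from the rest of their groups, widens the gap in fibroblast markers between the groups and is no check on their part. In that fit the log2 fold changes were 4.21 for Gdnf, 4.19 for Ntrk3, 1.96 for Bdnf and 1.38 for Ngfr, each with a limma adjusted p under the threshold. Artn (0.78, adjusted p = 0.0890), Gfra1 (0.78, adjusted p = 0.0805) and Ret (-0.52, adjusted p = 0.165) did not pass there. The part of fibroblast RNA in these differences was not tested.

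Ret was measured beside islet and leukocyte markers that were higher in EpCAM+ libraries. All 8 tested islet endocrine markers were lower in EpCAM- libraries, with sums of 10638.4, 2062.9 and 2481.1 for the EpCAM+ libraries in replicate order and between 102 and 151 in EpCAM-. Ins1, Ins2, Sst and Ppy averaged under the filter's minimum of 10 in EpCAM- and passed through EpCAM+ alone. A higher level in EpCAM- was therefore not open to them. Of 7 tested leukocyte markers 6 were lower, with sums of 4426.6, 973 and 1724.5 for the EpCAM+ libraries in the same order and between 329 and 549 in EpCAM-. EpCAM+ replicate 1, the highest in both lists, also had the highest Ret (9.29) and Ntrk2 (5.31) of all libraries. Within EpCAM+ it also had the highest acinar, fibroblast, neuron and epithelial sums. The highest Schwann cell, pericyte, endothelial and mesothelial sums of EpCAM+ lay in other libraries. The part of any of these cells in the Ret difference was not tested. Of 6 acinar markers 6 were lower, with sums of 117142.5, 57906.9 and 108091.0 for the EpCAM+ libraries in replicate order and between 369 and 434 in EpCAM-. Pericyte markers were split (2 higher and 2 lower of 7 tested), with overlapping sums of 2324.5 to 3942.2 in EpCAM+ and 2080.5 to 2441.6 in EpCAM-. Endothelial sums were at most 172 in any library, with 1 of 3 tested markers higher, and the only tested mesothelial marker, Msln, did not pass.

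**Figure D4:**
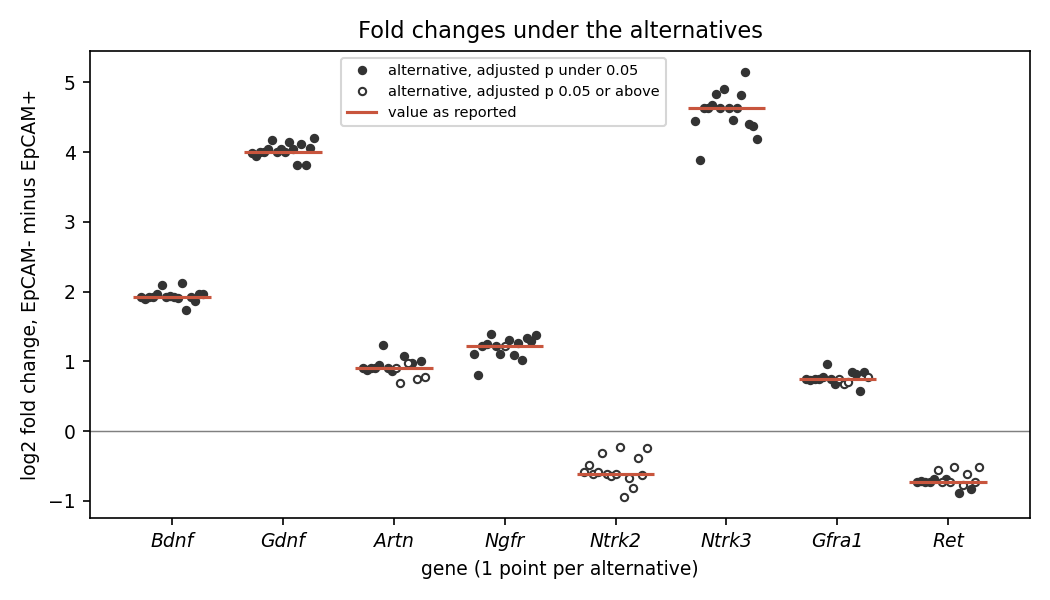
Log2 fold change of each of the 8 genes, EpCAM- minus EpCAM+ (vertical axis), under each alternative of the processing (points, filled where the adjusted p was under 0.05 and open where it was not), with the reported value as a red line. Points of Gdnf, Ntrk3 and Bdnf are all filled, those of Ntrk2 are all open, and no gene changes sign.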

How the data were processed

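RNA of YFP-positive cells was sequenced after sorting, with the KAPA mRNA HyperPrep kit on an Illumina HiSeq instrument per the labels' protocols. The build GRCm38 and the tools DESeq2 1.24.0, RSEM and STAR 2.5.2 are listed without a role, per the submitters' processing notes. The authors normalised the libraries to each other and deposited log2 values, and the transform and the use of strand in counting are not given in the sources used here. Depth is unknown, and 1 further allele of the mice and some genes of the pathway lists are not reported here, nor counted with their lists.

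Symbols, positions and exon lengths came from GENCODE M21 by Ensembl identifier (25831 of 25978 matched). A gene was tested if its back-transformed values averaged at least 10 (15783 genes). The test was limma (3.58.1, R 4.3.3) with trended prior variance, no covariate, two-sided p-values and Benjamini-Hochberg adjustment over all tested genes at 0.05. With 3 against 3 an exact permutation test cannot go below p = 0.1, so none was run. The procedure was tested on simulated data. The 8 genes, the 6 pathway lists, the 10 marker lists and the tests were chosen with earlier results of these data known, although the rule for the 8 genes uses none of them. Named genes are the 8 genes and, from each pathway list, the 4 or fewer called genes of largest change. Further members that did not pass or were not tested are also named. Sort1, Sorcs2, Ncam1, Etv4, Etv5, Spry2 and Spry4 were chosen after their values were seen. So were the Schwann cell, neuron and mesothelial markers given. The 16 alternatives left out each library in turn, or both EpCAM+ replicate 1 and EpCAM- replicate 3. Others used array weights, a replicate block, a fold change minimum (log2 of 1), pseudocounts of 1 and 5, quantile or upper quartile scaling, and a filter at 50 or none.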

Additional observations from a re-analysis of the deposited data

How the results depend on the processing

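No log2 fold change of the 8 genes changed sign under any alternative. Of 126 values, 108 kept their side of the threshold and 18 lost the call: 8 for Ret, 5 for Artn, 4 for Gfra1 and 1 for Ngfr. With a minimum log2 fold change of 1, 1865 genes passed, 3 of the 8 genes passed (3 higher and 0 lower), and the counts were 1 for the other ligands, 2 for the proteases, 2 for the adaptors, 0 for the response genes and 1 for the other neurotrophic factors. Without EpCAM+ replicate 1 and EpCAM- replicate 3 together, 4369 genes, 4 of the 8 genes (0 lower) and 5 adaptors passed. With no filter, 1 of the other neurotrophic factors passed. After quantile normalisation, which moved the median log2 fold change of all tested genes to 0.131, 0 of the 8 genes were called lower. With each library left out in turn, the number of genes called lay between 4987 and 7300, of the 8 genes between 4 and 6, of those higher between 4 and 6 and of those lower between 0 and 1. The same ranges were 10 to 19 for the adaptors, 2 to 8 for the response genes and 1 to 3 for the other neurotrophic factors. Of the 44 pathway genes reported as called beyond the 8, 26 passed with each library left out and 18 lost the call in at least 1 such fit. Some of these fits had fewer samples or a stricter test, and the cause of the shifts was not tested.

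The labels give both groups the same replicate numbers. Deviations from the group means correlated at 0.41, 0.04 and 0.16 for numbers 1, 2 and 3. EpCAM+ replicates 1 and 3 correlated best with the EpCAM- library of the same number, and EpCAM+ replicate 2 with EpCAM- replicate 3 (0.23). These correlations do not settle whether the numbers pair the libraries. The labels do not say what a shared number means, so the main fit had no block. With the replicate block 7090 genes passed, 6 of the 8 genes were called and 0 were called lower (Ret at a limma adjusted p of 0.0590). Depth is unknown, so no detection limit can be given for Ngfr, Ntrk2 and Ntrk3 at their low levels.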

Other observations

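The genes whose levels followed each of the 8 genes most closely over the 6 libraries were taken as the 2 tested genes with the highest Pearson correlation. They were Plod2 (0.9992) and Dnm1 (0.9985) for Gdnf, Jcad (0.9989) and Sik3 (0.9985) for Bdnf, and Gm45632 (0.9948) and Gm16310 (0.9913) for Artn. For the receptors they were Zc3h12c (0.9999) and Rian (0.9994) for Ntrk3, Txnl4a (0.9985) and Apln (0.9979) for Ngfr, and Ptprn2 (0.9860) and Zfp961 (0.9825) for Ntrk2. Gm37676 (0.9919) and Rdh5 (0.9897) were closest to Gfra1, and Bcl2a1b (0.9954) and Plbd1 (0.9942) to Ret. The 6 libraries share their group split, so a gene with a large group difference correlates with very many others. A correlation above 0.95 was reached with 1284 genes for Gdnf and 1000 for Bdnf, against 97 for Ret and 19 for Ntrk2. These values are a description of 6 libraries.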
